A study of Mus musculus with 6 samples.

Results

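The 122 mouse promoter regions described here are those with the lowest methylated DNA immunoprecipitation (MeDIP) enrichment among regions tiled only by short probes. Regions were built by joining probes of the promoter array that start no more than 500 bp apart on the mm9 build, which gave 25035 regions. Of these, 609 lie on autosomes and hold 5 to 19 probes that are all 45 bases long. The members are the lowest 20% of the 609 by the mean log2 ratio of MeDIP over input DNA across all 6 arrays, after each array was centred on its own median. The level of a region therefore chose the members and is given as a description, with no test. The mean weights both diet groups equally, but a region with low values in 1 group alone can enter the members through that group, and such regions are counted below.

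In MeDIP, an antibody against 5-methylcytosine pulls methylated fragments out of sheared genomic DNA, and the pulled-down DNA is compared with the unselected input. A low ratio means that few fragments of that stretch were recovered relative to input. The antibody needs several methylated cytosines close together, so a low ratio can be seen both in CpG-rich DNA that is unmethylated and in DNA with few CpG sites. Many mammalian promoters lie in CpG islands, which are mostly unmethylated in somatic tissues, while methylated CpG islands are known from imprinted loci, the inactive X chromosome and germline genes. On oligonucleotide arrays of this type, probe length is commonly varied to even out melting temperature, and short probes are then used for GC-rich sequence. The base composition of the probes was not analysed here, so the description of these promoters as GC-rich rests on probe length alone. The files pair probes with mm9 positions and not with genes, and the reference tables at hand are on GRCm38. For that reason no genes are named and no sequences are shown.

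The DNA came from adipose tissue of 32-week-old female C57BL/6J offspring. LC mice were born to dams fed a low chromium diet through gestation and lactation and received the control diet after weaning. CC mice had dams on the control diet and ate the control diet themselves. Each group had 3 mice, from litters that contributed 1 female pup each, with 1 array per mouse. MeDIP DNA carried Cy5 and input DNA carried Cy3 on every array, with no dye swap. Adipose tissue holds adipocytes together with vascular, stromal and immune cells, and the cell makeup was not checked here, since the array's promoters were not matched to genes.

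All LC arrays sat at 1 slide position and all CC arrays at another, so position and diet cannot be told apart. Replicates 1 and replicates 2 of both groups shared a scan, and the arrays numbered 3 were scanned on the same day in separate scans. CC replicate 3 was scanned with a MeDIP detector voltage of 306 V, above the 279 V of the other arrays. The log ratios of all probes were less spread on the LC arrays, with a median absolute deviation of 1.31, 1.37 and 1.32, than on the CC arrays, with 1.49, 1.47 and 1.44. Probe length moved with both the level and the group difference. The 45-base probes had a median log2 ratio of 0.43 and a median LC minus CC difference of -0.09, whereas the 60-base probes had -1.12 and 0.27. The part of these technical differences in the results below was not tested beyond the alternatives given.

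The members' mean log2 ratios ran from -1.14 to 0.01, with a median of -0.23, and 117 of 122 lay below 0. The limit of the lowest 20% was 0.019. The region chr4:43680556-43682935 had a mean of 0.01, as did chr2:31324490-31326117 and chr4:129724281-129725566, the last regions inside the limit. The first regions outside it were chr17:35669220-35670608 at 0.023, chr15:79844807-79846325 at 0.035 and chr2:29932986-29934606 at 0.037. There was no gap at the limit, and the members are the lower end of a continuous range. The other 487 regions of 45-base probes had a median of 0.49, and the highest 20% of the 609 had a median of 0.90.

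**Figure D1:**
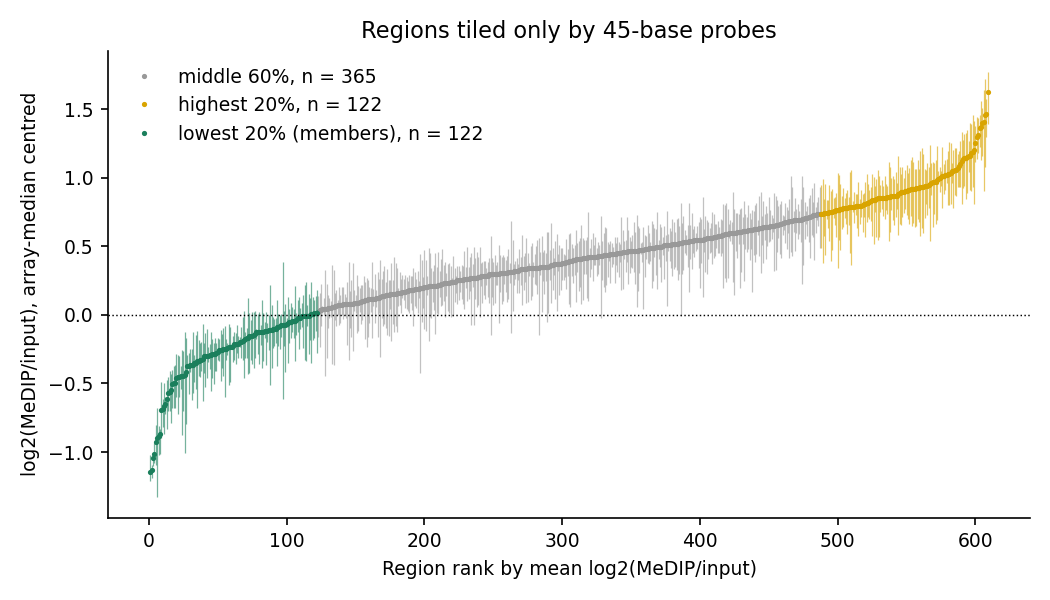
Mean log2(MeDIP/input) of the 609 regions tiled by 45-base probes, ranked from lowest to highest. Each point is the mean of 6 arrays and each vertical line runs from the lowest to the highest array; the 122 members (green) pass into the middle 60% (grey) with no step at the limit of 0.019.

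Low here means low among short-probe regions. Set among all 22569 regions with at least 3 probes, whose median was -0.15, the members' median stood at percentile 45.05. The lowest member stood at percentile 8.31 and the highest at percentile 61.0, and 1875 tested regions lay below the lowest member. Probes of different length are not on a common scale, as the medians by length show, so these percentiles describe the array's values and not absolute methylation.

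Of the 122 members, 115 were among the lowest 20% on the LC arrays alone and 111 on the CC arrays alone. Both groups of arrays entered the mean that chose the members, so these counts are a description. The lowest 20% on the 3 LC arrays and the lowest 20% on the 3 CC arrays were 122 regions each, of which 104 were shared, 85.2% of each list. The regions chosen on the LC arrays had a median of -0.16 on the CC arrays, against 0.58 for the regions not chosen. Those chosen on the CC arrays had a median of -0.27 on the LC arrays, against 0.40. Across the 122 members the correlation between arrays was 0.900 to 0.924 within LC, 0.959 to 0.966 within CC and 0.740 to 0.893 between the groups, over arrays that share probe design and hybridization chemistry. The median SD of a member between mice was 0.094 in LC and 0.044 in CC.

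The 5 lowest regions lay far below the bulk of the members on every array. The SDs between mice of the lowest were 0.099 in LC and 0.069 in CC, and those of chr3:88139417-88140634 were 0.109 and 0.075. These were above the members' medians of 0.094 and 0.044. The SDs of chr10:77261421-77262896 and chr14:52935506-52936833 were below both medians, and those of the chromosome 18 region were 0.024 and 0.048. The lowest, chr7:31250330-31251209, had log2 ratios of -1.21, -1.02 and -1.18 in LC and -1.19, -1.07 and -1.19 in CC. It was 1 of only 2 members in which every probe had a mean below 0. Along its 5 probes the log2 ratio went from -0.03 at the first start to -0.32 at 199 bp, -1.93 at 408 bp, -2.67 at 645 bp and -0.77 at 835 bp. The probe at 645 bp was not well above background in the MeDIP channel on any array, so its ratio is poorly determined.

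The next region, chr10:77261421-77262896, read -1.19, -1.09 and -1.11 in LC and -1.12, -1.16 and -1.10 in CC. Its 7 probes fell far apart, with -3.12 at the first start, -2.37 at 414 bp and -2.56 at 1431 bp, and 0.67 at 1023 bp. The probe at 1431 bp was not well above background in the MeDIP channel on any array. The region on chromosome 18 that came next read -1.02, -1.01 and -1.05 in LC and -1.004, -1.06 and -1.10 in CC. In that region 4 of 8 probes were not well above background in the MeDIP channel on any array. Its level is thus less well determined than the small spread between mice would give.

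In chr14:52935506-52936833 the LC values were -1.08, -0.99 and -1.08 and the CC values -0.93, -0.99 and -1.01. A single probe of the 6, at 1016 bp, stood at -4.33, not well above background in MeDIP on any array, and the mean without it was -0.35. In chr3:88139417-88140634 the LC values were -0.91, -0.90 and -1.09 and the CC values -0.80, -0.92 and -0.94. Its first probe stood at -2.66, with LC replicate 3 apart from the others at -3.69, and the mean without that probe was -0.49. That probe was well above background in MeDIP on only 1 array. The LC and CC arrays overlapped in all 5 of these regions, and none of the 5 passed the test between groups.

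**Figure D2:**
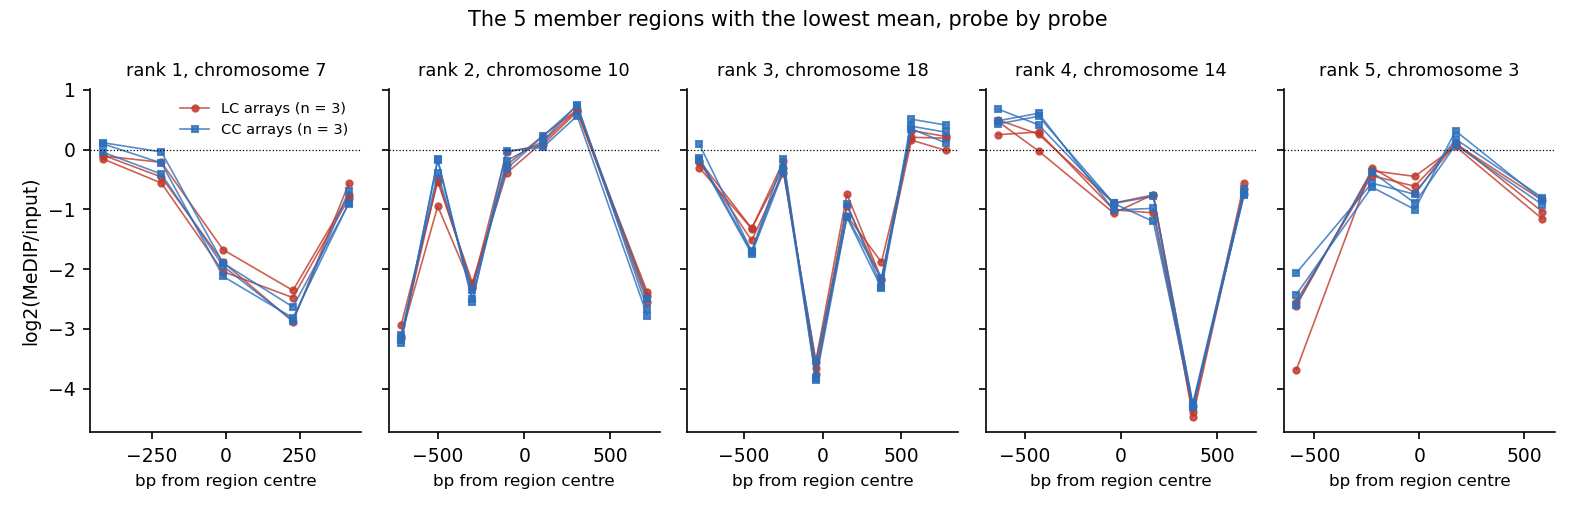
Log2(MeDIP/input) of each probe, by distance in bp from the region's centre, in the 5 member regions with the lowest mean. Each line is 1 array (red LC, blue CC, 3 each). The dips, down to -4.33 in the chromosome 14 region, recur at the same probes in each mouse. In the chromosome 3 region 1 LC array stands apart, at -3.69, at a probe well above background in MeDIP on only 1 array.

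These dips were the rule among the members. The difference between the highest and the lowest probe of a member had a median of 3.41 on the log2 scale and ran from 0.55 to 8.16. It was 2.85 in the middle 60% and 2.26 in the highest 20%; since the mean of the same probes chose the classes, this is a description. The lowest probe of a member had a median of -2.11 and the highest a median of 1.17. In 120 of 122 members at least 1 probe lay above 0, and in 48 members the median probe did. Of the 872 member probes used, 54.7% lay below 0, against 31.8% in the middle 60% and 12.3% in the highest 20%.

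The low readings recurred at the same probes in both groups. All arrays carry the same probes, so an effect of the probe and a property of the region cannot be told apart here. The lowest probe was the same on the LC and the CC arrays in 103 of 122 members. The probes that were lowest on the LC arrays had a median of -2.18 there and of -2.13 on the CC arrays. The CC arrays did not pick these probes but helped to choose the regions that hold them, so this is a description. The probes lowest on the CC arrays had -2.14 there and -2.15 on the LC arrays. Within a member, the probe profiles of the 2 groups had a median correlation of 0.98. The lowest probe was the first or last of its region in 43 members, and the median log2 ratio did not follow the distance from the region's centre. It was -0.26 within 200 bp, -0.01 from 400 to 600 bp and -0.21 from 800 to 1200 bp.

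The region with the widest and that with the narrowest spread show how differently a low mean can come about; both were chosen after their values were seen. In chr6:88850960-88852582, 1 probe of 8 stood at -6.15 and its neighbour at 2.01, and without the low probe the region's mean would be 0.48. The low probe was not well above background in the MeDIP channel on any array, so this ratio too is poorly determined. In chr17:34940975-34942133 all 6 probes lay between -0.56 and -0.01, and each was well above background on all arrays. That region is the other member with every probe below 0. It read -0.11, -0.22 and -0.19 in LC and -0.30, -0.48 and -0.23 in CC, higher on every LC array, but did not pass the test (limma adjusted p = 0.108).

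**Figure D3:**
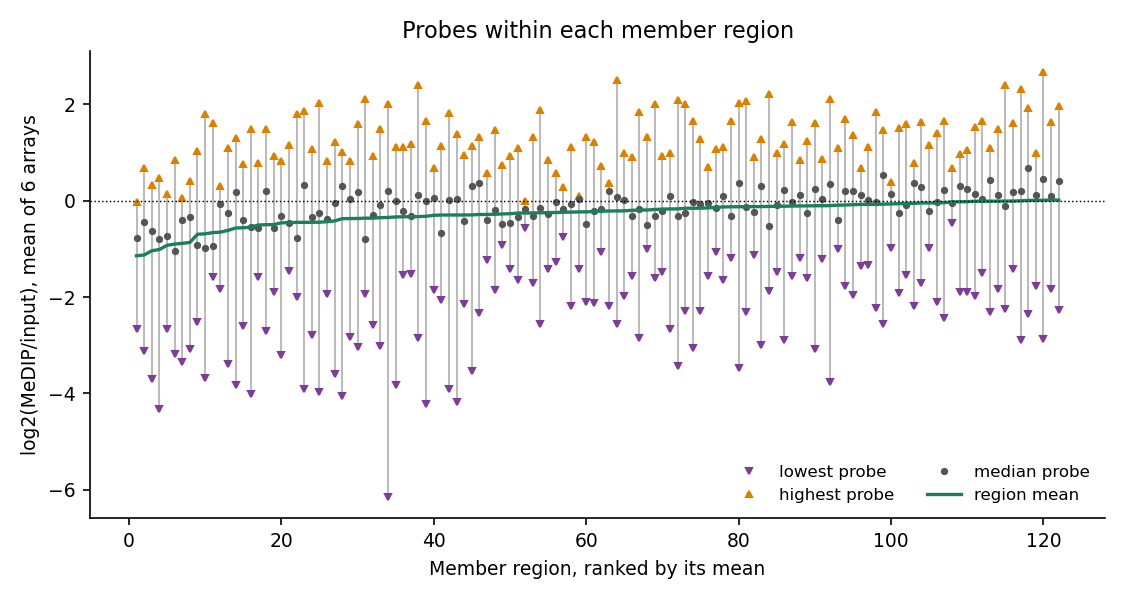
Lowest (purple), median (grey) and highest (orange) probe of each of the 122 members, as log2(MeDIP/input) averaged over 6 arrays, with the region mean as a green line. The lowest probes have a median of -2.11 and reach -6.15, while the highest probe lies above 0 in 120 members.

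How far single probes set the members' level can be counted. Without its lowest probe, the mean of 73 members would lie above the limit of the lowest 20%. When the lowest probe was left out of every eligible region, however, 102 of the 122 members were still among the lowest 20%, and 89 were when the median over probes replaced the mean. The alternative without the lowest probe was added after the data had been seen. Signal limited many low probes. In 67 members at least 1 probe was not well above background in the MeDIP channel on every array of a group, 89 probes in all, and in 43 members the lowest probe was such a probe. None of the lowest probes was in that state in the input channel, and no member probe was saturated on any array. Each array had 88.8% to 90.0% of the member probes well above background in MeDIP and 97.2% to 99.1% in input.

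In size the members were like the other classes. They held a median of 8 probes, from 5 to 10, against 8 in the middle 60% and 7 in the highest 20%. They spanned a median of 1594 bp, from 862 to 2380 bp, against 1629 and 1565 bp. The regions with most probes were chr4:43680556-43682935 and chr4:151850971-151852877, with 10 each, followed by regions with 9, of which chr11:69761193-69762950 had a mean of -0.45. The widest were these same chromosome 4 regions, at 2380 and 1907 bp, and a region of 1882 bp on chromosome 18. The nearest other region of the array lay a median of 9531 bp from a member, against 17613 bp in the middle 60% and 17659.5 bp in the highest 20%, and 47 members had one within 5000 bp. The median log2 ratio of that nearest region was -0.04, close to the 0.03 and 0.01 of the other classes. The nearest region may hold probes of other lengths, so its level and that of the members are not on a common scale. Chromosome 11 held 14 members of 61 eligible regions, chromosome 7 held 13 of 60, and chromosome 12 held 9 of 24. Chromosome 13 held 1 of 15. These counts were not tested.

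Maternal diet was then compared within the members. Most read lower in LC than in CC, but by little, and the calls depended on how the arrays were grouped in the fit. The median over members on each array was -0.38, -0.25 and -0.23 in LC and -0.13, -0.16 and -0.16 in CC. LC replicate 1 was the lowest array, and the groups did not overlap. The median LC minus CC difference was -0.12, with single members between -0.69 and 0.19, and 106 of 122 members were lower in LC. Over all tested regions the median difference was 0.015 and 46.2% were lower in LC.

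By limma on all 6 arrays, with p adjusted by Benjamini-Hochberg over all 22569 regions, 36 members were lower in LC at an adjusted p under 0.05, which is 29.5%. The share over all tested regions was 8.86%. Among the other 45-base regions the share at the same adjusted threshold was 43.3%, with 39.5% in the middle 60% and 54.9% in the highest 20%. The members thus had the smallest share of the 3 classes in this fit, but the order turned with the scaling. With equal spread on every array the shares were 22.1% in the members, 18.6% in the middle 60% and 13.9% in the highest 20%, and after quantile normalization 22.1%, 21.1% and 17.2%. With loess the members' share stayed the smallest, at 15.6%, 21.1% and 25.4%. It was also the smallest with the authors' processed values, at 22.1%, 27.1% and 26.2%, and with normexp, at 10.7%, 24.7% and 36.9%. With the median over probes the shares were 17.2%, 15.1% and 18.9%. At an unadjusted p under 0.05 limma gave 60 members lower and 3 higher, where 17.2% of all tested regions were lower and 21.5% higher. Just 1 member was higher in LC, 0.82%, whereas 10.2% of all tested regions were and 0 of the other 487 short-probe regions were. The 36 regions called lower differed by -0.15 to -0.69, with a median of -0.27 and adjusted p from 0.0181 to 0.0480. In 68 members all LC arrays lay below all CC arrays, 55.7%, against 20.5% of all tested regions and 69.6% of the other 45-base regions.

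Part of these calls lay in regions that were members through the LC arrays. In 16 members every CC array was above the limit of 0.019, and 12 of the 36 lower calls were among them, whereas no member had every LC array above it. Since low LC values helped to choose these 16, their calls are a description. The other members held 24 of the calls, but some of these also had help from low LC values. By the mean of the CC arrays 22 members were above the limit, and 14 of the calls were among them. Of the 122 members, 111 were also in the lowest 20% on the CC arrays alone, and 26 of these, 23.4%, were called lower. The members outside that list held 10 of the calls, which are likewise a description.

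These calls did not survive a block for replicate number, which here is also the scan day and holds both groups. With it, limma called 0 members in either direction, and 0 of all tested regions, the smallest adjusted p being 0.0507. Without adjustment the blocked fit put 56 members lower and 3 higher at a p under 0.05, against 16.5% and 20% of all tested regions. The direction did hold within each number. The median difference was -0.23 for replicates 1, -0.08 for replicates 2 and -0.09 for replicates 3. LC was lower in 110, 93 and 97 of 122 members, against 10562, 10474 and 10807 of all 22569 tested regions. In all 3 numbers LC was lower in 82 members, 67.2%, against 28.6% of all tested regions and 81.1% of the other 45-base regions. When CC replicate 1 was left out limma called 0 members lower. Leaving out CC replicate 3 also gave 0, and leaving out CC replicate 2 gave 9, which is 7.38% against 2.32% of all tested regions. Without CC replicate 1 and without CC replicate 3 no tested region was called at all. With normexp background correction of the raw signals the median difference was 0.00 in place of -0.12, and 13 members, 10.7%, were lower and 8, 6.56%, higher, against 6.76% and 20.7% of all tested regions. The p-values rest on the spread between the arrays of a group, 1 per mouse, so mouse and measurement cannot be separated. Slide position, which goes with the diet group, is not part of that spread.

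The 5 members with the largest calls had CC values between -0.27 and 0.39, higher than those of the 5 lowest members. In chr11:61668095-61669049, of 5 probes, the log2 ratios were -0.49, -0.16 and -0.61 in LC and 0.22, 0.39 and 0.20 in CC. LC was lower by every comparison of arrays and at 5 of 5 probes, and the difference was -0.69 with an SE of 0.10 (limma adjusted p = 0.0181). Of its probes 2 were not well above background in the MeDIP channel on any array.

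In chr7:28043196-28044080 the values were -1.01, -0.60 and -0.54 in LC and -0.13, -0.15 and -0.19 in CC. The difference of -0.56 (SE 0.10, limma adjusted p = 0.0189) was largest for replicates 1, at -0.88. The LC values there spread more widely than the CC values, with SDs of 0.26 and 0.030. In chr1:39249830-39251485 the values were -0.51, -0.27 and -0.29 in LC and 0.22, 0.04 and 0.16 in CC. LC was lower at 7 of 8 probes, by -0.50 (SE 0.07) over the region.

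In chr16:35154430-35156044 the values were -0.33, -0.23 and -0.15 in LC and 0.24, 0.17 and 0.24 in CC, a difference of -0.45 (SE 0.06). This region held 1 probe that was not well above background in MeDIP on any array. All its CC arrays lay above the limit, as did those of chr11:61668095-61669049 and chr1:39249830-39251485, so these 3 regions were members through their LC arrays. In chr2:31494263-31496008 the values were -0.80, -0.51 and -0.56 in LC and -0.21, -0.17 and -0.27 in CC, a difference of -0.41 (SE 0.07, limma adjusted p = 0.0187). Here the CC arrays were low as well. A single probe of its 9 stood at -3.59 and was not well above background in MeDIP on any array.

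The 1 member higher in LC was chr11:69671734-69672645. Its log2 ratios were -0.56, -0.41 and -0.43 in LC and -0.66, -0.62 and -0.70 in CC, a difference of 0.19 (SE 0.05, limma adjusted p = 0.0374). All 5 of its probes were higher in LC. The calls of all 6 regions were lost with the replicate block, with the scan as a block, and when either CC replicate 1 or CC replicate 3 was dropped. They were also lost by the methods' unpaired t-test, with Benjamini-Hochberg adjusted p from 0.117 to 0.135. None of the 6 changed direction under any alternative run. The call of chr16:35154430-35156044 was also lost with the median over probes. The region higher in LC was also not called with the median over probes, with loess, quantile or equal-spread scaling, nor without CC replicate 2, LC replicate 2 or LC replicate 3.

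Among the regions at the limit, chr2:31324490-31326117 read -0.12, -0.09 and -0.04 in LC and 0.14, 0.10 and 0.10 in CC, and was called at -0.20 (SE 0.05, limma adjusted p = 0.0247). The values of chr4:129724281-129725566 were -0.28, 0.07 and -0.13 in LC and 0.13, 0.18 and 0.12 in CC, and it was called at -0.25 (SE 0.08, limma adjusted p = 0.0471). The values of chr4:43680556-43682935, -0.17, 0.04 and -0.05 in LC against 0.07, 0.11 and 0.05 in CC, did not pass (limma adjusted p = 0.124). All 3 regions lay above 0 in every CC mouse, so their place among the members came from the LC arrays, and the differences of all 3 are a description. Of the widest regions, the 1 on chromosome 18 was called at -0.27 (limma adjusted p = 0.0428).

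**Figure D4:**
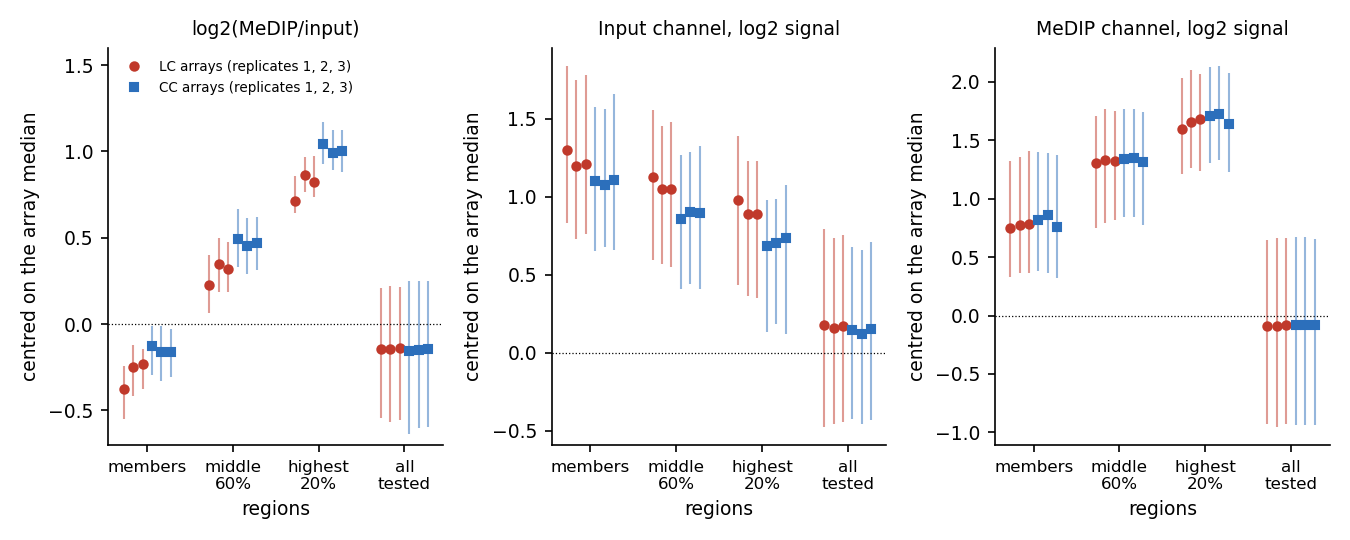
Median over regions (points, with the interquartile range as lines) on each array, for members, the middle 60%, the highest 20% and all tested regions, as log2(MeDIP/input) and as the log2 signal of each channel centred on the array median. Circles are LC and squares CC, replicates 1 to 3 from left to right; in the members the ratio is lower and the input signal higher on every LC array, while the MeDIP medians overlap.

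The ratio is the MeDIP signal less the input signal on the log2 scale, so the difference can be followed into its channels. In the members it lay mainly in the input. The median input signal over members, relative to the array's median, was 1.30, 1.20 and 1.21 in LC and 1.098, 1.07 and 1.105 in CC, and the groups did not overlap. By limma on the input channel 51 members were higher in LC, 41.8%, against 13.1% of all tested regions and 59.8% of the other 45-base regions. None was lower in LC at the adjusted threshold, where 7.32% of all tested regions were. Before adjustment 3 members were lower at a p under 0.05, against 15.2% of all tested regions. With the replicate block 53 members were higher in input, against 14.1% of all tested regions. Without CC replicate 3 the count fell to 0 at the adjusted threshold. No tested region was called in input in that case. The count was 19 when CC replicate 1 was left out, against 4.38% of all tested regions, and 30 when CC replicate 2 was, against 7.04%. It was 31 without LC replicate 1, against 7.63%, and 15 after quantile normalization, against 6.996%.

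The MeDIP channel differed less. Its medians over members were 0.75, 0.78 and 0.78 in LC and 0.82, 0.86 and 0.76 in CC, so that CC replicate 3 lay among the LC arrays. Limma on this channel called 0 members at the adjusted threshold, and before adjustment, at a p under 0.05, 19 were lower and none higher. Over all tested regions 0.0133% were lower at the adjusted threshold, and 6.67% were lower and 2.63% higher at the unadjusted one. With the replicate block 1 member was lower, against 0.0576% of all tested regions. The median MeDIP difference was -0.07 for replicates 1, -0.02 for replicates 2 and 0.01 for replicates 3, so its sign was not the same in all 3.

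Of the 36 members called lower in the ratio, 34 were also called higher in input, and in all 36 the input difference was larger than the MeDIP difference. Their median difference was 0.26 in input and -0.05 in MeDIP. In chr11:61668095-61669049 the input differed by 0.65 and MeDIP by -0.08, and in chr16:35154430-35156044 by 0.45 and -0.04. The region higher in LC, chr11:69671734-69672645, had the opposite sign in input, at -0.13 (limma adjusted p = 0.0827), and 0.02 in MeDIP. In the called regions the input difference thus had the opposite sign to the ratio difference. Since the ratio is MeDIP less input, part of this link is built in. The higher sign rests on 1 region, whose input difference did not pass the test. Among the 5 lowest members the MeDIP difference was largest in chr3:88139417-88140634, at -0.25 (limma adjusted p = 0.264) beside -0.13 in input, neither of which passed the test. Its first probe was well above background in MeDIP on only 1 array.

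**Figure D5:**
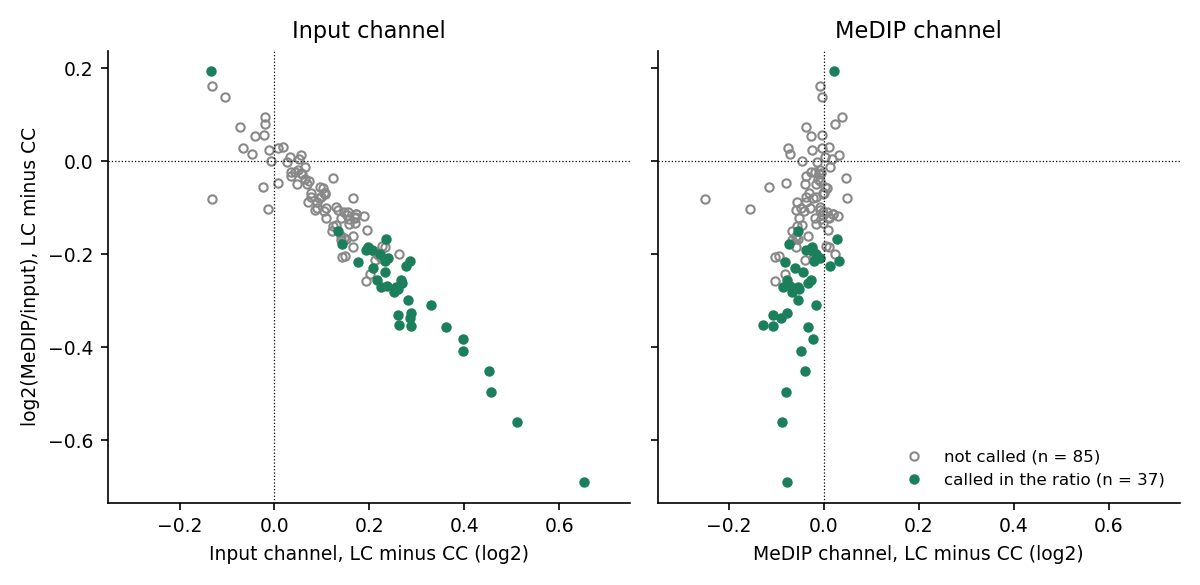
LC minus CC difference of the log2(MeDIP/input) ratio against the LC minus CC difference of the input channel (left) and of the MeDIP channel (right) for the 122 members. Filled points are the 37 members called in the ratio by limma; since the ratio is MeDIP less input, a slope is built in, and the called regions reach 0.65 in input but stay within a narrow band around a median of -0.05 in MeDIP.

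The same differences run through the other short-probe regions, and the classes are therefore set side by side. The median LC minus CC difference was -0.12 in the members, -0.16 in the middle 60% and -0.20 in the highest 20%. The order depended on the scaling. When every array was given the same spread of log ratios the medians were -0.16, -0.12 and -0.11, with the members lowest, and after quantile normalization they were -0.15, -0.13 and -0.13. The sign was kept under both. Under the other alternatives run the members again had the smallest difference. With loess the medians were -0.07, -0.10 and -0.13, and with the authors' processed values -0.05, -0.06 and -0.10. With normexp they were 0.00, -0.05 and -0.12. The differences between classes were not tested, because the classes were cut from these arrays.

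A score of adjacent probes was also computed with a sliding-window Kolmogorov-Smirnov test on the group means, which contains no spread between mice. By it, 12 members held a peak lower in LC, 9.84%, and 0 held a peak higher in LC. The shares of all tested regions were 4.1% and 2.2%, and 13.3% of the other 45-base regions held a peak lower in LC. Of the 12 members, 10 were among the 36 that limma called lower. The 5 regions with the largest lower calls were all among them.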

How the data were processed

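Genomic DNA of adipose tissue was immunoprecipitated with an antibody against 5-methylcytosine and hybridized with its input to a 2-colour mouse RefSeq promoter array. The deposited scanner files hold each spot's intensity in both channels, which the authors extracted with Feature Extraction 11.0.1.1. The processed intensity of that software is background-subtracted and dye-normalized. The log10 ratio of Cy5 over Cy3 in the deposited scanner files was used only to check the direction. The series value table holds log2 ratios processed by the authors and was used as an alternative. The array has 180465 features, of which 5827 are controls, leaving 174638 probes. The number of arrays limits the precision.

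From the processed intensities, log2(MeDIP/input) was computed per probe, centred on the array median and averaged over the probes of a region. The tests left out 362 probes that the scanner software called outliers on at least 1 array, keeping 174276, while the rule that chose the members used all probes. Regions of at least 3 probes, 22569 in all, were tested with limma 3.58.1 in R 4.3.3, without a block, at an adjusted p under 0.05, over the ratio and over each channel. Normexp used an offset of 50. The Kolmogorov-Smirnov peaks needed a score of at least 2, as -log10 p, at 2 or more adjacent probes in windows of 750 bp. Group means and regions were handled in Python 3.11.15. The procedures were tested on simulated data.

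The members, the classes set beside them and the tests were chosen with earlier results of these data known. The regions named are the 5 lowest, the 3 on each side of the limit, up to 5 of the largest calls in each direction (1 was higher), and the 3 with most probes and the 3 widest. The 2 with the largest and the smallest probe range were added after their values were seen. Lists of genes could not be matched, and CpG classes were not analysed here. With 3 arrays against 3, an exact permutation test of a single value cannot go below p = 0.1, so none is given.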

Additional observations from a re-analysis of the deposited data

How the results depend on the processing

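The number of members lower in LC, 36, was 19 with loess, which is 15.6% against 6.37% of all tested regions. It was 21 with the median over probes, 17.2% against 5.16%, and 13 with normexp, 10.7% against 6.76%. It was 0 with the replicate block and 0 with the scan as a block, in which the arrays numbered 3 carry no comparison. By the methods' t-test it was 0 after Benjamini-Hochberg adjustment and 42 unadjusted. No tested region was called lower in these adjusted fits. The share of all tested regions is not given for the unadjusted t-test. Leaving out 1 array gave 0 to 47. The 1 member higher in LC became 3 with the authors' values, 2.46% against 7.93% of all tested regions. It became 8 with normexp, 6.56% against 20.7%. It was 2 by the unadjusted t-test and 0 to 1 with 1 array left out. Without LC replicate 1 it was 1, 0.82% against 5.18% of all tested regions. No member was higher with loess, the median over probes, quantile normalization, equal spread, either block and the adjusted t-test. In input, 51 members higher became 15 after quantile normalization, 12.3% against 6.996% of all tested regions. With 1 array left out it was 0 to 55, the largest being 45.1% against 13.6% without LC replicate 2. The 0 members lower in input became 1 with only probes well above background, 0.82% against 6.89%. After quantile normalization it was 3, 2.46% against 7.13%. In MeDIP, 0 members lower became 1 with the replicate block, 0.82% against 0.0576% of all tested regions. The median difference of -0.12 was 0.00078 with normexp, a change of sign, -0.16 to -0.09 with 1 array left out, and -0.16 to -0.05 otherwise. The 12 members with a lower peak became 22 with the authors' values, which gave 5 with a higher peak. They became 19 in windows of 1000 bp and 3 at a score of 3. Shares of all tested regions are not given for these peak settings. The cause was not tested in any of these.

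The deviations of same-numbered arrays correlated at -0.16, 0.11 and -0.00027 over 22569 regions. The replicate number coincides with the scan day, and what else the block stands for was not tested. Of the members, 89 to 122 stayed among the lowest 20% under the alternatives run. Probes near background in MeDIP limit how low a ratio could be measured.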
